A study of Mus musculus with 5 samples.

Results

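The genes described here are those expressed in the WT striatum that were at least 2-fold higher in R6/1. The rule took rows with a normalized count of at least 50 in each of 3 WT libraries and with the lowest R6/1 value at least 2 times the highest WT value. Names that start with Pcdh or Hist and 5 named genes were left out. The rule gave 27 genes, from 13224 rows that reached the floor and 26369 rows in all. Before names were left out, 34 rows met it, which is 0.257% of the rows at the floor, and the 7 removed were Sfmbt2, Tpx2, Sox10, Pcdhb2, Pcdh20, Pcdhb3 and Pcdhb4. The opposite rule, with every R6/1 value at or below 1/2 of the lowest WT value, took 271 rows (2.05%). Since the rule chose the genes on these values, their levels are a description and carry no test.

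The WT and R6/1 mice share a mixed background, 50% CBA and 50% C57BL6. R6/1 mice carry in addition a transgene of exon 1 of the Huntington's disease gene with a CAG expansion given as 115, and WT mice do not. The tissue was striatum in all 5 libraries (3 WT, 2 R6/1). Total RNA was depleted of cytoplasmic and mitochondrial ribosomal RNA and copied with random primers into stranded libraries, so transcripts without a poly(A) tail were sampled too. The labels give no age, sex or litter. The human huntingtin promoter drives the R6/1 transgene, so it is active well beyond the striatum.

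Library totals were 19630036 to 23046266 counts in WT and 29871306 to 34379064 in R6/1. With edgeR, 1672 genes were called higher in R6/1 (9.72% of 17202 tested) and 2210 lower (12.8%). All 18 markers of the medium spiny neuron, the principal cell of the striatum, were called lower (median log2 fold change -1.84), and their summed CPM was 11340 to 13100 in WT and 3312 and 3364 in R6/1. The tissue label therefore matched its markers. Choroid plexus markers summed to 5561 and 5528 CPM in WT replicates 1 and 2 and to 424, 462 and 335 CPM in WT replicate 3 and R6/1 replicates 1 and 2, so 2 WT libraries stood apart in that tissue's transcripts.

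Huntington's disease is caused by an expanded CAG repeat in the huntingtin gene. Striatal medium spiny neurons are the cells most affected, and loss of their characteristic transcripts is the best known expression change in mouse models. The genes listed here, which were higher, are mixed in their known roles. They include a sodium channel, an inhibitor of a calcium-dependent kinase, giant muscle proteins, a subunit of a CCAAT-binding factor, metabolic enzymes and noncoding RNAs. None of the 27 was an entry of any of the 26 pathway and cell type lists counted for comparison. Those lists hold 624 found entries, some repeated, against 26369 rows, so few members would be on one in any case. Sox10 and Tpx2, which met the fold but were left out by name, are on the oligodendrocyte and cell cycle lists.

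Promoters are shown for 4 members described below, as examples that differ in CG content and do not span its full range. AW551984 had the largest ratio. Scn9a and Baiap3 are neuronal genes. Their windows hold fewer CG pairs than the median of the rows at the floor (20) but more than that of all promoters (7). Camk2n2 is a neuronal gene whose window is dense in CG pairs. Sequences are from RefSeq on GRCm38.p6, 5′ to 3′ on the minus strand of each gene, from 250 bases before to 50 bases after an annotated start. Capitals mark CG pairs. The windows are chr9:39604221-39604520 for AW551984, chr2:66634913-66635212 for Scn9a, chr17:25256315-25256614 for Baiap3 and chr16:20621229-20621528 for Camk2n2.
AW551984: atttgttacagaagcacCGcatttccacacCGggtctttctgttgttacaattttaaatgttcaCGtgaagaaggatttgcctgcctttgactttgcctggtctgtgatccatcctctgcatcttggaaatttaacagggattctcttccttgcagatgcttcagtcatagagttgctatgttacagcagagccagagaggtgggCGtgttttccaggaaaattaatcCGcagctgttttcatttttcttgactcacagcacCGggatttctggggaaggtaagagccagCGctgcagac
Scn9a: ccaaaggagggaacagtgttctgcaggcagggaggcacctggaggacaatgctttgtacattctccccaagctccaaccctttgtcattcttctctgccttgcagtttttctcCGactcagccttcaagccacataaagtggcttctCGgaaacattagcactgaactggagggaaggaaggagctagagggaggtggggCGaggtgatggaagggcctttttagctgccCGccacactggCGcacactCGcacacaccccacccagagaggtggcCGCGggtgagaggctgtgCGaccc
Baiap3: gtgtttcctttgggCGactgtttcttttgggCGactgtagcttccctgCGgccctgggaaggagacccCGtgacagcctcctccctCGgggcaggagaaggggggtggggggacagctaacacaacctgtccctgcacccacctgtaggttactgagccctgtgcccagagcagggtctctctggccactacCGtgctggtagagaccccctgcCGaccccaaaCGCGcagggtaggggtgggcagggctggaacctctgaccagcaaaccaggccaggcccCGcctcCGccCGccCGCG
Camk2n2: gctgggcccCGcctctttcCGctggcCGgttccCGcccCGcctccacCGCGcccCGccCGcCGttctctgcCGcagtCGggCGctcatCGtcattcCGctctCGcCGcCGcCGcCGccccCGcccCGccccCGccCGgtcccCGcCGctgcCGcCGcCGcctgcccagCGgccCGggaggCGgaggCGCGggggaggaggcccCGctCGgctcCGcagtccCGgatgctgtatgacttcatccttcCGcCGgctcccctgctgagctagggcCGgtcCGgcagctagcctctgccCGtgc
The windows hold 7, 9, 14 and 43 CG pairs in that order. The number of CG pairs found relative to that given by the base composition was 0.45, 0.37, 0.42 and 0.96. AW551984 has 3 annotated windows, of which the one with the most CG pairs is shown. Over all 23 members' windows found, the number ran from 2 (AW551984 and Nfya) to 63 (Gm8619).

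As a group, the 27 genes were weakly expressed in WT. Their median WT level was 169 normalized counts, against 738 for all rows at the floor and 480 for the rows that were at least 2-fold lower in R6/1. The WT mean was under 100 in 9 genes and at least 100 in the others, with Gprasp2 far above the rest. Per kb of deposited gene length, the median WT level was 70.7, and 10.8% of the rows at the floor lay below it. The rule selects on these WT values, through the floor and through the fold, so the low levels are a description of the genes it took.

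The members' values summed to 8492, 10330 and 9107 normalized counts in WT replicates 1 to 3 and to 26250 and 26150 in R6/1 replicates 1 and 2. The ratio of the group means ran from 2.39 to 7.30, with a median of 2.86. Only 3 genes had a lowest R6/1 value at least 3 times their highest WT value (AW551984, Rpl3 and Fam196b), while 19 had ratios between 2 and 2.5. The groups do not overlap in any member, as the rule requires, which was so for 31.5% of all rows at the floor in this direction.

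**Figure D1:**
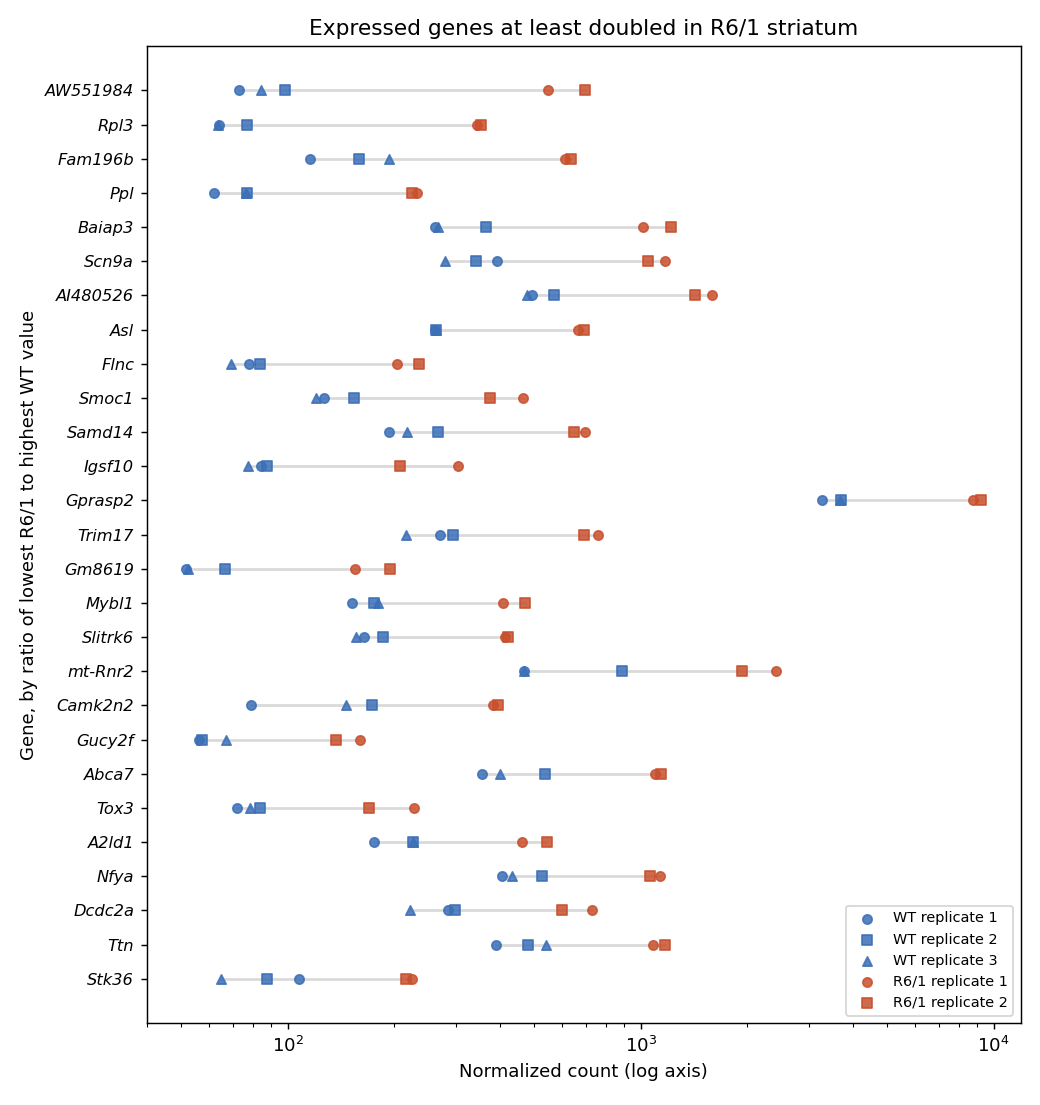
Normalized count (log axis) of each of the 27 genes in the 3 WT (blue) and 2 R6/1 (red) libraries, one symbol per library, ordered by the ratio of the lowest R6/1 to the highest WT value. The gap between the colours is widest for AW551984, at 98.2 and 546, and narrowest for Stk36, at 108 and 216.

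**Figure D2:**
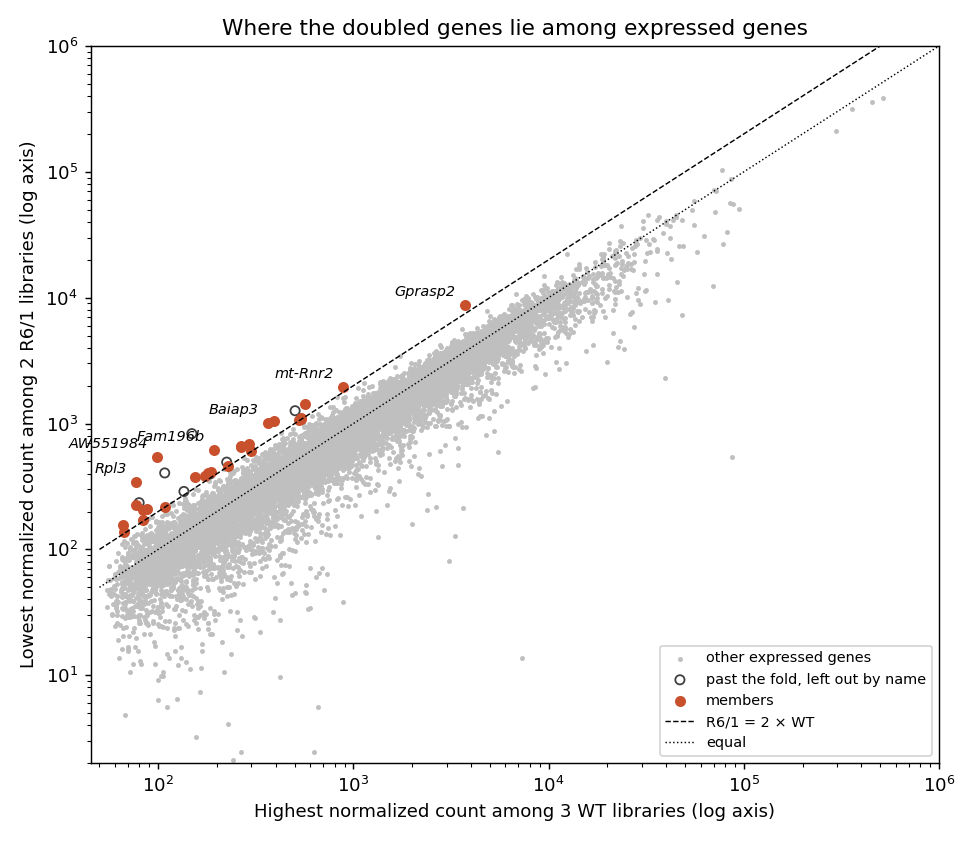
Lowest R6/1 value against highest WT value (normalized counts, log axes) for the 13224 rows at the floor. The 27 members (red) lie above the dashed line of a 2-fold ratio together with the 7 rows left out by name (open circles), mostly at the low end of WT expression, with Gprasp2 at 3709 and 8751 as the exception.

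The first set of members acts at the neuronal membrane and synapse. Scn9a encodes the voltage-gated sodium channel Nav1.7, best known from sensory neurons of the pain pathway. It was at 391, 341 and 279 normalized counts in WT and at 1171 and 1052 in R6/1. The group means were 337 ± 56.5 (SD, n = 3) and 1112 ± 84.2 (SD, n = 2), a 3.30-fold ratio with no overlap. Of the 7 other voltage-gated sodium channel alpha subunits tested, 0 were called higher by edgeR (0 also at an unadjusted p below 0.05) and 1, Scn8a, was called lower. Scn1a, Scn2a1 and Scn3a, abundant channels here, had log2 fold changes of -0.08, -0.17 and 0.15 and were not called (adjusted p = 0.503, 0.0993 and 0.189). Scn8a was abundant too, with a WT mean of 9391 normalized counts against 9361 for Scn1a. Its log2 fold change was -0.45 (adjusted p = 0.0100). With R6/1 replicate 1 or 2 left out, the log2 fold change of Scn8a was -0.46 and -0.43, and it did not pass. Scn9a remained a minor channel: its R6/1 level was 148 normalized counts per kb, while Scn1a, Scn2a1 and Scn3a were at 1508, 3716 and 1858 per kb in R6/1.

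Baiap3 encodes a protein of the Munc13 family, which prepares vesicles for release, and is known for dense-core vesicle traffic. It was at 261, 365 and 266 normalized counts in WT and at 1014 and 1221 in R6/1, a 3.76-fold ratio of the means. WT replicate 2 was the highest of its WT libraries and still lay far below both R6/1 libraries. Of the 4 Munc13 genes proper, 0 were called higher by edgeR (0 also at an unadjusted p below 0.05) and 1 lower. Unc13c fell from 10570 ± 778 to 6119 ± 208 normalized counts (log2 fold change -0.80, SE 0.08, edgeR adjusted p = 0.00104), and that call was kept without each library in turn. Unc13a, Unc13b and Unc13d were at -0.47, 0.19 and -0.05 and did not pass (adjusted p = 0.0705, 0.434 and 0.863).

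Camk2n2 encodes an endogenous inhibitor of calcium/calmodulin-dependent kinase II. It was at 78.7, 174 and 147 normalized counts in WT and at 381 and 395 in R6/1. Its WT libraries spread 2.21-fold, the widest among the members, whereas the R6/1 libraries nearly coincided. The other inhibitor gene, Camk2n1, went the opposite way: it was at 20330, 18990 and 21260 in WT and at 5278 and 6147 in R6/1 (log2 fold change -1.84, SE 0.09, edgeR adjusted p = 9.46e-05). Camk2n1 was the more abundant of the pair in both groups, at 4544 and 1285 normalized counts per kb in WT and R6/1 against 103 and 301 per kb for Camk2n2. Of the kinase genes, Camk2b fell (log2 fold change -0.91, adjusted p = 0.000338), from 21270 ± 735 to 11440 ± 401 normalized counts, while Camk2a (-0.25, adjusted p = 0.0705), Camk2d (0.65, adjusted p = 0.0905) and Camk2g (0.11, adjusted p = 0.525) did not pass. The calls for Camk2n1 and Camk2b were kept without each library in turn.

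Gprasp2 encodes a protein that binds G protein-coupled receptors and takes part in their sorting after internalization. It had the highest counts of the set, at 3258, 3709 and 3669 normalized counts in WT and at 8751 and 9203 in R6/1. The means of 3545 ± 250 (SD, n = 3) and 8977 ± 320 (SD, n = 2) differ 2.53-fold. It lies on chromosome X in a cluster of related genes, and here the relatives shared the direction in part: 4 of 8 were called higher by edgeR and 0 lower, with a median log2 fold change of 0.43. Gprasp1, its closest relative and the receptor-sorting protein of the pair that is best studied, rose from 22680 ± 1219 to 38020 ± 1475 normalized counts (0.73, SE 0.07, adjusted p = 0.000833), a call kept without each library in turn. Armcx2, Armcx4 and Armcx6 were called at 0.42, 0.88 and 0.65 (adjusted p = 0.0314, 0.00544 and 0.0380). Armcx4 lost its call with R6/1 replicate 1 left out, where its log2 fold change was 0.76. Armcx2 did not pass without WT replicate 3 (adjusted p = 0.0739), R6/1 replicate 1 (adjusted p = 0.148) or R6/1 replicate 2 (adjusted p = 0.143). Armcx6 passed in 1 repeat, with WT replicate 3 left out, and had adjusted p = 0.0589 to 0.185 in the other repeats. Bhlhb9, whose transcripts overlap Gprasp2 on the same strand in GENCODE, was at 0.21 (adjusted p = 0.0998).

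Slitrk6 encodes a transmembrane protein with leucine-rich repeats that is known for neurite growth and innervation of the inner ear. It was at 164, 186 and 156 normalized counts in WT and at 414 and 422 in R6/1. Each group was tight, with SDs of 15.5 and 5.58. Among its 5 relatives, Slitrk1, Slitrk3, Slitrk4 and Slitrk5 had log2 fold changes of 0.46, 0.24, 0.13 and 0.25 and did not pass (adjusted p = 0.146, 0.118, 0.325 and 0.0985). Slitrk2 was called lower (-0.41, adjusted p = 0.0371). Of the repeats with 1 library left out, it passed in the one without WT replicate 1 and had adjusted p = 0.0544 to 0.22 in the others.

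Fam196b, a relative of a gene for a protein of inhibitory synapses, was at 116, 159 and 193 normalized counts in WT and at 611 and 635 in R6/1. The 3.99-fold ratio of its means was the third largest among the members. Its relative Fam196a was at 172 ± 55.7 and 145 ± 27.5 normalized counts and did not pass (log2 fold change -0.26, adjusted p = 0.546). Fam196b lies within the gene Dock2 on the opposite strand, and Dock2 was at 0.44 (adjusted p = 0.0723). Samd14, a gene for a protein with a sterile alpha motif, was at 193, 267 and 218 in WT and at 697 and 648 in R6/1, with WT replicate 2 the highest of the WT libraries.

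Another set of members belongs to the cytoskeleton, to cilia and to the extracellular matrix. Ttn encodes titin, the giant spring of the muscle sarcomere. It was at 389, 479 and 540 normalized counts in WT and at 1083 and 1176 in R6/1, just inside the rule with a ratio of 2.006. The deposited gene length of Ttn was 2145 bases, while its longest GENCODE transcript is 49.8 times as long, so its level per kb cannot be compared with that of other genes. Of 14 other sarcomere genes tested, 1 was called higher and 4 lower, with a median log2 fold change of -0.55. Tnnt2, cardiac troponin T, rose from 54.9 ± 10.2 to 172 ± 1.95 normalized counts (1.63, SE 0.21, edgeR adjusted p = 0.00265) and missed the rule only because WT replicate 3, at 43.2, was under the floor. Actn2, the alpha-actinin of the sarcomere that also occurs in dendritic spines, fell from 2797 ± 269 to 1120 ± 78.4 (-1.34, adjusted p = 0.000402). The calls for Tnnt2 and Actn2 were kept without each library in turn. Others were less firm. Mybpc3 did not pass without R6/1 replicate 1 or 2 (adjusted p = 0.124 and 0.0827), and Acta1 did not pass without those (adjusted p = 0.216 and 0.098) or WT replicate 3 (adjusted p = 0.105).

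Flnc encodes the muscle form of filamin, an actin cross-linker. It was at 77.6, 83.6 and 69.4 normalized counts in WT and at 204 and 235 in R6/1. Flna, the widely expressed filamin, fell from 4770 ± 224 to 2980 ± 333 (log2 fold change -0.69, SE 0.09, edgeR adjusted p = 0.00312), and the call was kept without each library in turn. At 24.3 normalized counts per kb in R6/1, Flnc remained one of the weakest members even where it was high.

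Ppl encodes periplakin, a plakin that links intermediate filaments to cell junctions. Its values were 61.8, 77.0 and 76.2 in WT and 232 and 225 in R6/1, a 3.19-fold ratio of the means. Of the 5 other plakin genes tested, 0 were called higher (1 at an unadjusted p below 0.05), and Dst and Macf1, the ones with the highest levels per kb, were at 0.09 and 0.02 (edgeR adjusted p = 0.324 and 0.875). Dsp, desmoplakin, was called lower (-1.52, adjusted p = 0.0300), but its WT values of 277, 261 and 116 normalized counts were high in the same 2 libraries that held choroid plexus transcripts. Dsp did not pass with WT replicate 1 left out (adjusted p = 0.0692), nor without R6/1 replicate 1 or 2 (adjusted p = 0.114 and 0.178).

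Smoc1 encodes a secreted calcium-binding matrix protein that modulates BMP signalling. It was at 127, 154 and 121 normalized counts in WT and at 464 and 375 in R6/1. Of 6 related matrix genes, 0 were called higher (1 at an unadjusted p below 0.05) and 2 lower, and Spock3, a proteoglycan of the same family, fell from 16160 ± 1466 to 7550 ± 60.2 (log2 fold change -1.11, SE 0.09, edgeR adjusted p = 0.000443), a call kept without each library in turn. Igsf10, a large secreted protein of the immunoglobulin superfamily, was at 84.3, 87.6 and 77.3 in WT and at 304 and 208 in R6/1. Its R6/1 libraries differed more from each other than its WT libraries did, with SDs of 67.5 and 5.25.

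Dcdc2a encodes a doublecortin-domain protein of microtubules and primary cilia. It was at 284, 299 and 223 normalized counts in WT and at 727 and 600.1 in R6/1. Its relatives went both ways, as 1 of 6 was called higher and 2 lower. Dclk1, the one with the highest level per kb, fell from 28280 ± 4418 to 11650 ± 410 (log2 fold change -1.30, SE 0.13, edgeR adjusted p = 0.00113), a call kept without each library in turn. Stk36 encodes a kinase needed for motile cilia in the mouse and related to the Drosophila hedgehog kinase fused. It was at 108, 87.6 and 64.8 in WT and at 225 and 216 in R6/1, and it was the member closest to the rule's edge. Of 8 hedgehog pathway genes, 2 were called higher and 2 lower, but none of these 4 calls was kept in every repeat. Gli3 did not pass without R6/1 replicate 1 (adjusted p = 0.0694) and Kif7 without either R6/1 library (adjusted p = 0.0805 and 0.1). Sufu passed in 1 repeat, without WT replicate 2, and had adjusted p = 0.114 to 0.244 in the others.

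The third set concerns transcription and protein turnover. Nfya encodes the subunit of the trimeric factor NF-Y that contacts the CCAAT box. It was at 405, 527 and 433 normalized counts in WT and at 1137 and 1067 in R6/1, a 2.42-fold ratio of the means. The other subunits share the trimer but not the size of the difference. Nfyc rose from 644 ± 18.7 to 1148 ± 96.7 (log2 fold change 0.82, SE 0.09, edgeR adjusted p = 0.00124), a call kept without each library in turn, while Nfyb was at 0.18 and did not pass (adjusted p = 0.207).

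Mybl1 encodes A-MYB, a transcription factor best known from male meiosis. It was at 152, 175 and 181 normalized counts in WT and at 407 and 471 in R6/1. The related genes Myb and Mybl2 had lower R6/1 than WT means, with log2 fold changes of -0.55 and -1.03, and did not pass (edgeR adjusted p = 0.311 and 0.108). Tox3, a gene for an HMG-box nuclear protein, was at 72.0, 83.6 and 78.5 in WT and at 228 and 170.0 in R6/1. Tox, Tox2 and Tox4 were at 0.32, 0.61 and 0.09 and did not pass (adjusted p = 0.216, 0.113 and 0.526). Trim17, an E3 ubiquitin ligase studied in neuronal apoptosis, was at 271, 293 and 216 in WT and at 757 and 689.6 in R6/1. A histone gene that overlaps Trim17 on the same strand, Hist3h2a, was at 0.16 (adjusted p = 0.261). Gm12260, a pseudogene that also overlaps it on that strand, was at 7.87, 3.98 and 11.4 normalized counts in WT and at 19.7 and 17.1 in R6/1. Its log2 fold change was 1.20 and it did not pass (adjusted p = 0.0939). On the opposite strand, 2310058D17Rik was at -0.49 (adjusted p = 0.0878).

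Metabolism and transport gave 4 members. Asl encodes argininosuccinate lyase, the enzyme of the urea cycle that releases arginine. It had the tightest WT values of all members, 261, 264 and 264 normalized counts, against 663 and 694 in R6/1. Of the 3 other genes of arginine metabolism tested, 0 were called higher by edgeR (0 also at an unadjusted p below 0.05) and 2 lower. Arg2, the mitochondrial arginase, fell from 357 ± 75.3 to 97.3 ± 14.1 (log2 fold change -1.89, SE 0.23, edgeR adjusted p = 0.00208), a call kept without each library in turn. Ass1, the enzyme just before Asl in the cycle, was called lower (-0.49, adjusted p = 0.0197), but did not pass when WT replicate 1 (adjusted p = 0.0579), R6/1 replicate 1 (adjusted p = 0.105) or R6/1 replicate 2 (adjusted p = 0.128) was left out. Otc and Nags were too low to be tested.

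A2ld1, the file's symbol for Ggact, an enzyme that breaks down gamma-glutamylamines, was at 175, 227 and 226 normalized counts in WT and at 461 and 542 in R6/1. It overlaps Pcca on the opposite strand, and Pcca was at 0.24 (edgeR adjusted p = 0.108). Abca7, a lipid transporter known as a risk gene of Alzheimer's disease, was at 356, 537 and 399 in WT and at 1097 and 1145 in R6/1, with WT replicate 2 again the highest of its group. Of 10 related transporters 3 were called higher and 1, Abca4, lower, none of them in every repeat with 1 library left out. Abca8a came closest (log2 fold change 0.70, edgeR adjusted p = 0.00482), with adjusted p = 0.0512 without R6/1 replicate 1. Abca4 was at 670.0 and 665 normalized counts in WT replicates 1 and 2 and at 104, 88.8 and 65.1 in the other libraries, the same split as the choroid plexus markers. Gucy2f, a membrane guanylate cyclase of the retina, was at 56.2, 57.1 and 67.1 in WT and at 159.9 and 137 in R6/1, the lowest R6/1 mean of the set. Of 5 related guanylate cyclase genes tested, 1 was called higher and 1 lower, with a median log2 fold change of -0.94. Gucy2c, an intestinal receptor cyclase, was called lower (-1.70, edgeR adjusted p = 0.0160) but did not pass without R6/1 replicate 1 or 2 (adjusted p = 0.113 and 0.103). Npr2, the guanylate cyclase that is the receptor of C-type natriuretic peptide, rose from 675 ± 13.4 to 1128 ± 18.8 (log2 fold change 0.72, SE 0.08, adjusted p = 0.00117), kept without each library in turn.

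The remaining members are a ribosomal protein gene, a mitochondrial ribosomal RNA, 2 long noncoding RNAs and AW551984. AW551984 was at 73.1, 98.2 and 84.1 normalized counts in WT and at 546 and 698 in R6/1. Its means of 85.1 ± 12.6 (SD, n = 3) and 622 ± 107 (SD, n = 2) gave the largest ratio of the set, 7.30. Of the noncoding RNAs, AI480526 was at 492, 568 and 478 in WT and at 1593 and 1429 in R6/1. Gm8619, called Phf2os1 in GENCODE and transcribed from the strand opposite Phf2, was the member closest to the floor, at 51.7, 66.4 and 52.3 in WT and at 155 and 195 in R6/1.

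Rpl3 encodes a protein of the large ribosomal subunit. It was listed at 64.1, 77.0 and 63.7 normalized counts in WT and at 345 and 352 in R6/1, a 5.11-fold ratio of the means. These levels were low for its kind: at 50.1 normalized counts per kb in WT, Rpl3 was near the bottom of the ribosomal protein genes, whose median was 1041 per kb and of which 3 of 84 lay lower. Ribosomal protein genes have many near-identical processed copies in the mouse genome, and how reads with several matches were counted is not given, so the Rpl3 value is uncertain. Of 81 other ribosomal protein genes tested, 4 were called higher by edgeR and 3 lower, with a median log2 fold change of -0.02.

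The gene mt-Rnr2 is the 16S ribosomal RNA of the mitochondrial genome and was a target of the depletion step. It was at 469, 887 and 466 normalized counts in WT and at 2422 and 1944 in R6/1, and its WT replicate 2 was far above the other WT libraries. The other mitochondrial ribosomal RNA, mt-Rnr1, was at 18.0, 1.33 and 13.6 in WT and at 58.5 and 25.2 in R6/1 and did not pass (log2 fold change 1.87, edgeR adjusted p = 0.0852). Of 13 other mitochondrial transcripts tested, 0 were called higher (4 at an unadjusted p below 0.05) and 2 lower. Of the latter, mt-Nd3 did not pass without R6/1 replicate 2 (adjusted p = 0.0863), and mt-Co3 passed in 1 repeat, without WT replicate 2, with adjusted p = 0.0672 to 0.208 in the others. How completely ribosomal RNA was removed in each library was not measured, so it and the level of mt-Rnr2 in the tissue cannot be told apart.

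Of the 109 tested relatives and partners, ribosomal proteins apart, 13 were called higher and 23 lower. Of all tested genes, 9.72% were called higher and 12.8% lower. The relatives' median log2 fold change was -0.02, against -0.0079 for all tested genes. Relatives called higher were 10 and 8 without WT replicates 1 and 3, where 5.45% and 4.84% of all tested genes were called higher. They were 21 without WT replicate 2 (13.2% over all genes). Without R6/1 replicate 1 or 2, fewer relatives were called in both directions, as were fewer over all genes. The relatives' median log2 fold change was then -0.02 and -0.03. Among the relatives with calls kept without each library in turn were Camk2n1, Camk2b, Flna, Unc13c, Spock3, Actn2, Arg2 and Dclk1 below WT, and Nfyc, Gprasp1, Npr2 and Tnnt2 above it. The members were chosen for being high, so a member standing apart from its relatives is in part given by the rule.

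**Figure D3:**
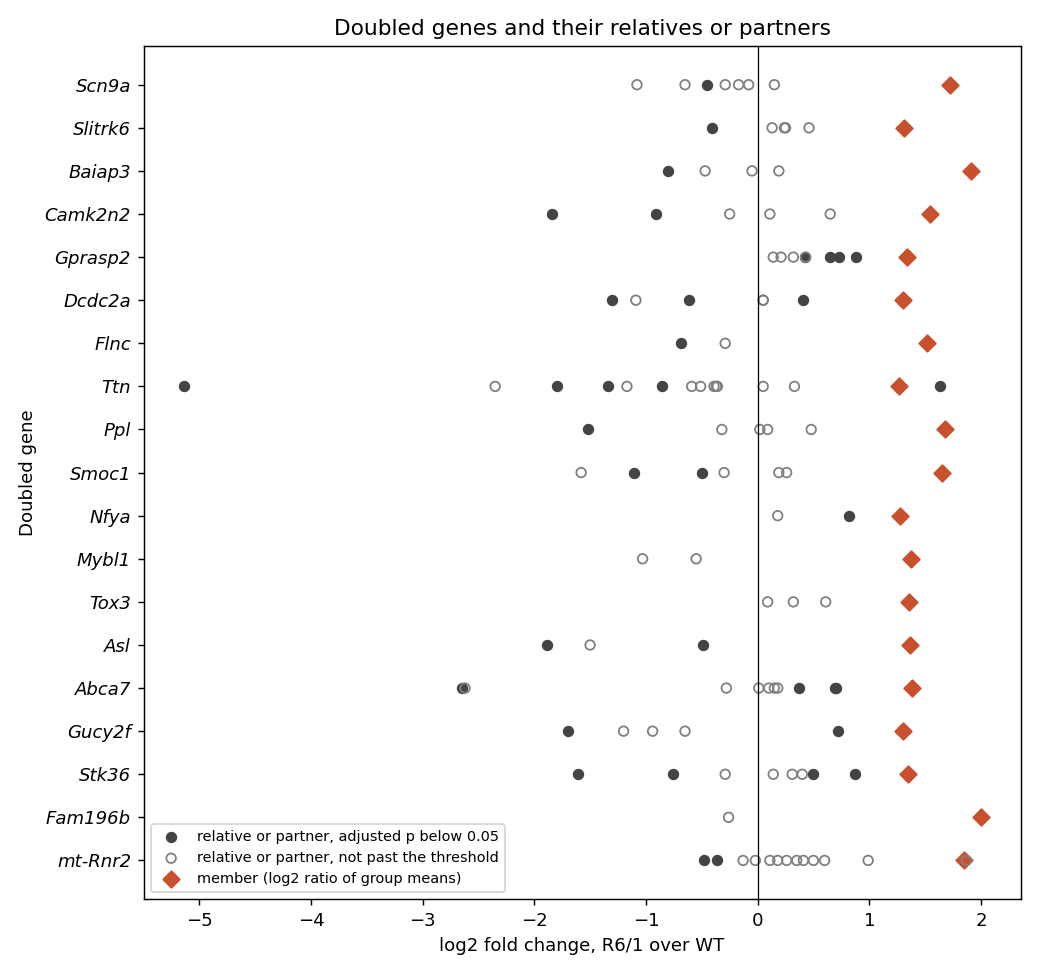
Log2 fold change (R6/1 over WT) of relatives and partners of 19 members, as dark circles where edgeR's adjusted p was below 0.05 and open circles otherwise, with the member itself as a red diamond at the log2 ratio of its group means, which has no test. The relatives of Gprasp2 all lie right of 0, while Camk2n1, at -1.84, is the farthest to the left in the row of Camk2n2.

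The genes directly next to the members in GENCODE were not chosen by the rule and were tested. There were 54 such places, and 22 held a gene that could be tested. Of these, 5 were called higher by edgeR (22.7%, against 9.72% of all tested genes) and 1 lower (4.55%, against 12.8%), with a median log2 fold change of 0.18. Without WT replicate 3, 3 were called higher (13.6%, against 4.84% of all tested genes). Without R6/1 replicate 1 or 2, 1 and 2 were called higher, where the shares over all genes were 1.58% and 1.76%. The nearest tested gene on each side, at whatever distance, gave 7 of 54 higher (13.0%) and 3 lower (5.56%).

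Ece2, which encodes an endothelin-converting peptidase and lies next to Camk2n2, was at 1012, 925 and 1055 normalized counts in WT and at 1915 and 2165 in R6/1. Its log2 fold change was 1.01 (SE 0.09, edgeR adjusted p = 0.000724), and the call was kept without each library in turn. Phf2, a histone demethylase gene from whose opposite strand Gm8619 is read, was at 694, 819 and 636 in WT and at 1295 and 1091 in R6/1 (0.72, adjusted p = 0.00913). Phf2 did not pass with R6/1 replicate 1 left out (adjusted p = 0.0803). The kit marks strand, but the strand setting of the counting is not given, so reads of Gm8619 and Phf2 may not have been kept apart.

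Gusb, the lysosomal beta-glucuronidase gene beside Asl, was called at 0.64 (edgeR adjusted p = 0.0203), Vcpip1, a deubiquitinase gene beside Mybl1, at 0.43 (adjusted p = 0.0136) and Rnf25, a ubiquitin ligase gene beside Stk36, at 0.40 (adjusted p = 0.0221). All 3 lost the call without R6/1 replicate 1, with adjusted p = 0.121, 0.0999 and 0.0583 in that order, and without R6/1 replicate 2, with 0.107, 0.0716 and 0.169 as adjusted p. Gusb also lost it without WT replicate 3 (adjusted p = 0.0612), and Rnf25 without WT replicate 1 (adjusted p = 0.0635) or 3 (adjusted p = 0.0674). The neighbour of Samd14 went the other way: Ppp1r9b, which encodes spinophilin, a scaffold of dendritic spines, was at 17240, 16760 and 17340 in WT and at 8097 and 7852 in R6/1 (-1.12, SE 0.06, adjusted p = 0.000121), kept without each library in turn.

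**Figure D4:**
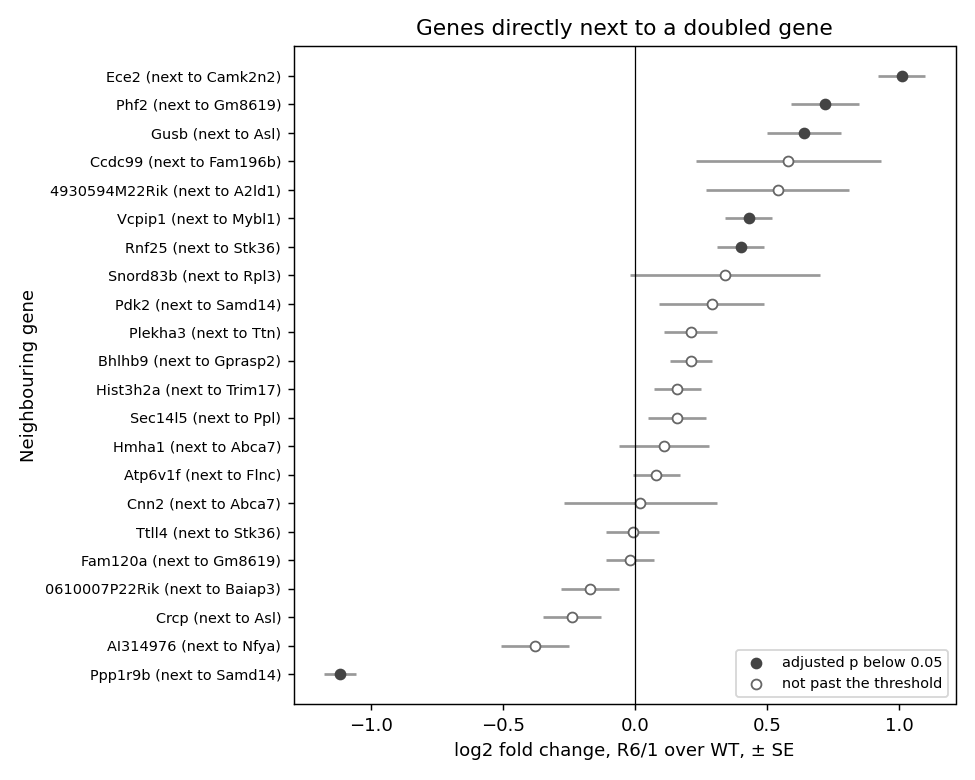
Log2 fold change (R6/1 over WT, ± SE) of the 22 tested genes directly next to a member, with the member named in brackets, filled where edgeR's adjusted p was below 0.05. Ece2 stands at 1.01 and Ppp1r9b at -1.12, and the others lie between -0.38 and 0.72.

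In all, 14 members overlap another annotated gene, 11 of them a gene in the table (6 on the same strand, 9 on the opposite strand, some on both). Most partners were not called. Beyond those given above, the antisense gene Gm13629 at Scn9a was at 0.15 (edgeR adjusted p = 0.635), Med12l at Igsf10 at 0.23 (adjusted p = 0.0887), Tsr3 at Baiap3 at -0.17 (adjusted p = 0.314) and Syngr1 at Rpl3 at 0.01 (adjusted p = 0.948). The rule took Baiap3, Scn9a, Igsf10 and Rpl3 for being high, and a partner that was not called is not shown to be unchanged. The part of overlapping transcripts in the members' counts was not tested. Other overlapping genes were too low to be tested. Of these, Gm13627 at Scn9a was at 1.12, 2.65 and 1.14 normalized counts in WT and at 4.23 and 8.13 in R6/1. Gm22077 at Rpl3 was at 0, 5.31 and 4.55 in WT and at 9.86 and 6.51 in R6/1. Gm24204 at Rpl3 was at 0 in each WT library and at 0.704 and 0.813 in R6/1. All of these are on the member's strand. Gm13938, on the opposite strand at Ttn, was at 2.25, 2.65 and 3.41 in WT and at 1.41 and 0 in R6/1. Such values are a few counts each. Among rows at the floor, the groups did not overlap in 31.5% (R6/1 higher) and 27.1% (R6/1 lower). In 9 members the longest GENCODE transcript is more than 2 times the deposited length, so levels per kb are least certain there (Gprasp2, A2ld1, Dcdc2a, Nfya, AW551984, Tox3, Samd14, Mybl1 and Ttn).

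Within WT, replicate 2 gave the highest value in 21 of the 27 members, against 38.9% of all rows at the floor. Replicates 1 and 3 were highest in 2 and 4. The median ratio of WT replicate 2 to the mean of the other WT libraries was 1.16 in the members and 1.00 over the rows at the floor. WT replicate 2 was also the shallowest library, and its oligodendrocyte markers summed to 5664 CPM, near the R6/1 libraries at 5704 and 5479 and below WT replicates 1 and 3 at 7847 and 7699. In R6/1 neither library stood apart, with 13 members highest in replicate 1 and 14 in replicate 2. WT values varied by a median CV of 14.1% in the members and 8.35% over the rows at the floor. The part of WT replicate 2's make-up in the members' levels was not tested.

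The rule was also applied without each library, and the genes it then took were looked up in the library left out. It took 74 genes without WT replicate 2, 35 without WT replicate 1, 38 without WT replicate 3, and 45 and 48 without R6/1 replicates 1 and 2. With fewer libraries the rule can only take more genes, so the members were always among them. All genes so chosen lay on the R6/1-high side in the library left out, where the lowest ratio was 1.001 and the median ratio 1.84 (WT replicate 2) to 2.64 (WT replicate 1). Without the 2 WT libraries that held choroid plexus transcripts, the rule took 110 genes.

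Cell type markers are given because a bulk tissue sample cannot tell fewer cells of a type apart from less RNA per cell. Of 16 microglia markers 0 were called by edgeR or by DESeq2, and 0 had an unadjusted p below 0.05 in edgeR (summed 475 to 560.2 CPM in WT, 485 and 526 in R6/1). Of 10 tested hypothalamic, thalamic and septal neuron markers 0 were called by edgeR or DESeq2 (1 higher and 1 lower at an unadjusted p below 0.05), and their sum was 49.3 to 77.3 CPM in WT and 60.3 and 48.3 in R6/1. Cortical projection neuron markers summed to 1077 to 1280 CPM in WT and to 510 and 469 in R6/1. By edgeR, astrocyte markers were called lower in 6 of 16 and higher in 1, with 3 lower without WT replicate 3 and 2 lower without either R6/1 library. Reactive astrocyte markers were called higher in 3 of 10 and lower in 0 by edgeR. By DESeq2, 1 of 13 was called lower, and 1 was lower at an unadjusted p below 0.05 in edgeR. Gfap is on both astrocyte lists and was called higher in each. Without WT replicate 3, 1 reactive marker was called higher and 1 lower. The reactive markers' median log2 fold change was 0.35, and 0.14 and 0.36 without R6/1 replicates 1 and 2. They summed to 114 to 154 CPM in WT and to 226 and 187 in R6/1. The part of these cell types in the members' levels was not tested.

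Other lists of genes outside the set gave the following counts by edgeR, to be read against 9.72% of all tested genes called higher and 12.8% lower. With R6/1 replicate 1 or 2 left out, those shares over all genes were 1.58% and 1.76% higher and 4.92% and 4.37% lower, so fewer calls were made everywhere. Interferon and antigen presentation genes were called higher in 12 of 32 and lower in 0, and imprinted genes, which are expressed from 1 parental copy, higher in 12 of 30 and lower in 1. Without R6/1 replicates 1 and 2 in turn, the interferon count was 6 and 3 and the imprinted count 3 and 4, and without WT replicate 1, where 5.45% of all genes were called higher, the imprinted count was 7. Developmental transcription factors were called higher in 9 of 23 and lower in 0, with 5 higher without either R6/1 library and 5 lower without WT replicate 3. Wnt, BMP and TGF-beta genes were called lower in 12 of 48 and higher in 0 (1 at an unadjusted p below 0.05, 0 by DESeq2), with 6 lower without R6/1 replicate 2.

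The edge of the rule fell within a continuous range. Just inside it were Stk36, Ttn and Dcdc2a with ratios of 2.004, 2.006 and 2.01. Just outside were 4922502B01Rik, Tmem130 and Sema3d with ratios of 1.99, 1.99 and 1.98. Between 1.9 and 2 lay 12 rows and between 1.5 and 2 lay 161. The floor mattered too, since 198 rows were past the fold but under it. Slc5a5, the sodium iodide transporter gene, was one of these, at 48.3, 133 and 65.9 normalized counts in WT and at 306 and 318 in R6/1.

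RefSeq promoters were found for 17 of the 27 members, with 23 windows. The CCAAT box, the site of the factor that Nfya belongs to, was searched as CCAAT and as its reverse complement ATTGG. It was in 6 of the members' windows (26.1%), in 37.4% of the windows of the rows at the floor and in 37.4% of all promoters. TATAAA, searched on both strands, was in 1 window (4.35%, against 6.86% and 13.6%). A CG ratio of at least 0.6 was found in 11 windows (47.8%), against 68.4% of the windows of the rows at the floor and 35.8% of all promoters. The printed windows show both sides of that line, with Camk2n2 above it and AW551984, Scn9a and Baiap3 below. The members' median was 18 CG pairs per window, against 20 and 7. Some genes have several windows, so windows are not independent.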

How the data were processed

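Striatal total RNA of 3 WT and 2 R6/1 libraries was sequenced. Per the file headers, the authors deposited 1 table of 26369 Ensembl genes. It holds raw counts per gene. Per the file headers, the authors also deposited a normalized signal, each library's counts over its size factor (0.7535 to 1.42), and this signal divided by gene length in kb. The authors' own log2 fold changes and p-values were deposited too and are not used here. Tools named in the submitters' processing notes are TopHat 1.4.1, HTSeq 0.5.4p3, DESeq2 1.0.19 and CASAVA 1.8.2, with the build mm9. Neither the annotation release, nor the strand setting of the counting, nor the handling of multi-mapped reads is given in the sources used.

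Members were taken from the normalized values by the rule stated in the report and get no test. The rule, the members and all lists were chosen with earlier results of these data known, and the families of relatives were written after the members were seen. All members are named. Some genes among the relatives are not reported here by name. The genes singled out among relatives, neighbours and list genes were chosen after their values were seen. Tests on other genes used edgeR's quasi-likelihood F test, version 4.0.16 (R 4.3.3), on deposited counts, with TMM scaling, filterByExpr (minimum count 10, minimum total 15) and genotype alone in the design. Called means a Benjamini-Hochberg adjusted p below 0.05 over the 17202 genes tested. Fold changes are R6/1 over WT on the log2 scale, with the SE the F statistic implies. Depth goes with genotype, since both R6/1 libraries were deeper than all WT libraries. Replicates differed by more than sampling noise (chi-square per gene 11.4 to 20.8). Nothing in the labels ties the libraries to separate animals, and the p-values then reflect only the spread between these libraries, possibly technical. On simulated data, 200 of 17202 genes were changed, all upward by 2-fold or 4-fold. Recovery was 66.2% for 2-fold and 95.8% for 4-fold changes, with 10.2% of calls false. The real data gave far more calls, in both directions and with smaller changes too, so these rates need not hold there. Alternatives were DESeq2 1.42.0, limma-voom (limma 3.58.1), other scalings, no filter, other floors and folds, and leaving out each library. Gene types, overlaps and neighbours come from GENCODE vM21 by Ensembl identifier, and promoters from RefSeq by symbol, both on GRCm38. The files use mm9, so no coordinates are given for measured genes.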

Additional observations from a re-analysis of the deposited data

How the results depend on the processing

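No paired analysis was possible because the labels give each library a number of its own, and the replicate numbers used here follow accession order and pair nothing. The rule took 27 genes with the authors' size factors and 23 with TMM scaling, all 23 among the 27. It took 43 with library totals alone, 42 with a floor of 20, 17 with a floor of 100, 188 with a fold of 1.5 and 3 with a fold of 3. Leaving out each library gave 35 to 74. Leaving out WT replicates 1 and 2 together, a choice made after seeing the data, gave 110. A lower floor, a lower fold or fewer libraries can only add genes to the 27. Library totals alone moved the median log2 fold change of all tested genes to 0.11, and genes called higher rose from 1672 to 3237. Leaving out each library gave 280 to 2277 genes called higher and 776 to 2576 called lower, with 280 and 312 higher without R6/1 replicates 1 and 2. Neighbours called higher were 1 to 6 with each library left out, against 5, and with the nearest tested gene on each side 3 were called lower, against 1. Relatives called higher were 29 with library totals alone, against 13, and relatives called lower 20, against 23. With 2 R6/1 libraries, low counts and no record of separate animals limit the precision of single members, above all of those near the floor of 50.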
